A study of Mus musculus with 9 samples.

Results

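The genes described here are 10 genes of MHC class I antigen presentation, taken by name from a table of 24341 genes measured in the liver. They are H2-K1, H2-D1, B2m, Tap1, Tap2, Tapbp, H2-T23, H2-M3, Nlrc5 and Erap1, and all 10 were found in the table. The livers came from 9 wild-type C57BL/6 mice and were taken 48 hours after treatment. Of these, 3 received anti-CD40, the agonist antibody FGK45 that activates the CD40 receptor (mice 2, 5 and 9), and 6 control mice, for which the sample records name PBS (mice 3, 4, 7, 8, 11 and 12). The RNA was from bulk liver, so every value mixes hepatocytes with all other cells of the organ, and fewer cells of a type cannot be told apart from less RNA per cell.

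MHC class I molecules show peptides from inside the cell to CD8 T cells. Proteins are cut by the proteasome, the peptides are pumped into the endoplasmic reticulum by the TAP transporter, trimmed there, and loaded with the help of tapasin onto a heavy chain paired with beta-2 microglobulin. Interferons raise many of these genes together, and NLRC5 is the transactivator that drives class I promoters. Hepatocytes normally carry little class I on their surface, whereas leukocytes carry much.

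Class I promoters are known for a shared order of elements: a kappa B site in enhancer A, bound by NF-kappa B, an interferon-stimulated response element (ISRE), bound by IRF proteins, and then an SXY module with an X2 box and a Y box, through which NLRC5 acts. The sequences below are of genes that rose, a gene that fell (H2-Q10) and a gene that did not pass the test (H2-T23), to show which of these elements each holds. Each is the 250 bases before the transcription start in RefSeq on GRCm38.p6, written 5′ to 3′ on the gene's own strand. Capitals mark matches, on either strand, to GGNNTTNCC (kappa B site), GAAANNGAA or GAANNGAAA (2 forms of the ISRE core), TTCNNNGAA (GAS core, an interferon-gamma element), TGACGC (X2 box, which resembles a CREB site) and ATTGG (Y box). The form GAANNGAAA was added after the promoter sequences had been seen. H2-K1 (chr17:34000334-34000583 on the minus strand) and H2-D1 (chr17:35262844-35263093 on the plus strand) encode the classical heavy chains, H2-Q7 (chr17:35438905-35439154 on the plus strand) a nonclassical chain of the Qa-2 group, H2-Q10 (chr17:35469839-35470088 on the plus strand) a soluble chain made by the liver, H2-M3 (chr17:37269984-37270233 on the plus strand) and H2-T23 (chr17:36032702-36032951 on the minus strand) nonclassical chains, and B2m (chr2:122147437-122147686 on the plus strand) the light chain.
H2-K1: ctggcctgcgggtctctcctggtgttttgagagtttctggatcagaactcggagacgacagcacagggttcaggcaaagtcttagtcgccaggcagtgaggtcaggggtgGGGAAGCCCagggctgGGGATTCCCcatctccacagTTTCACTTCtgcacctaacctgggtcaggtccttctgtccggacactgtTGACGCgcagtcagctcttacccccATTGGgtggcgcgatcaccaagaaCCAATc
H2-D1: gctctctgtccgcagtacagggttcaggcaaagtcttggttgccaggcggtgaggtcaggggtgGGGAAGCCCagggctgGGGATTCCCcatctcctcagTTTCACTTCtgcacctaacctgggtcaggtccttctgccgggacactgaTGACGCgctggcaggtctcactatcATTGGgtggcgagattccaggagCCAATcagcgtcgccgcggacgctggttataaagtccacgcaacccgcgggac
H2-Q7: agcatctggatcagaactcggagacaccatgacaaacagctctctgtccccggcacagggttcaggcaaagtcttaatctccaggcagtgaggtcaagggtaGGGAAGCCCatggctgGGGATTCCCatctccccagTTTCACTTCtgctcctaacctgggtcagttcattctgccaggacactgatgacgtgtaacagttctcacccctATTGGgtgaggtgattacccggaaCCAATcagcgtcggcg
H2-Q10: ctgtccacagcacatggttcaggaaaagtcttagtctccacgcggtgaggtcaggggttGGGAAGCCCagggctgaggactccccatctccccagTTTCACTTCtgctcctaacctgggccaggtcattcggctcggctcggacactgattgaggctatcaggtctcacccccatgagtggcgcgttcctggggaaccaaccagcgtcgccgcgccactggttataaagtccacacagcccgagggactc
H2-M3: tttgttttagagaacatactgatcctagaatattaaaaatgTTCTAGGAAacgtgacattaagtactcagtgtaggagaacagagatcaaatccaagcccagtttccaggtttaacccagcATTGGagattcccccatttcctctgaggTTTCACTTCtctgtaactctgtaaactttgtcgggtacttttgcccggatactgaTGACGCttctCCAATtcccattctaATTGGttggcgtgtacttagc
H2-T23: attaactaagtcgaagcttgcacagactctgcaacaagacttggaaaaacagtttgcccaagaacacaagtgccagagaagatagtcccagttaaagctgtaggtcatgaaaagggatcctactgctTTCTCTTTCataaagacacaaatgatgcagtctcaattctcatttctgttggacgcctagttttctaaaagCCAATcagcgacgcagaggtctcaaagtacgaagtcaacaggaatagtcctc
B2m: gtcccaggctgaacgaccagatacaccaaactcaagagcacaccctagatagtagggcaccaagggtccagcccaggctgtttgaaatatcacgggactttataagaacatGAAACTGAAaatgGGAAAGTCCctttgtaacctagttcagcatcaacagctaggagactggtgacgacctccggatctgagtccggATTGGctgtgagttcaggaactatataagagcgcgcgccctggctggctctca

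RefSeq had a window of 250 bases before to 50 bases after the start for 8 of the 10 genes, since Tap2 and Nlrc5 were not matched. Y box letters were in the windows of 7 of these 8 (all but Erap1), beside 37.4% of all 32851 windows of that length. The X2 letters were in H2-K1, H2-D1 and H2-M3, beside 7.4% of all windows, and the kappa B letters in H2-K1, H2-D1 and B2m, beside 16%. The ISRE core GAAANNGAA was in B2m, H2-T23 and Erap1, beside 8.56% of all windows, and the form GAANNGAAA in H2-K1, H2-D1 and H2-M3, beside 7.52%. The GAS core was in H2-M3 alone of the 8, beside 8.3%. H2-K1 and H2-D1 hold the same matches in the same order, at different distances from their annotated starts. Both held kappa B, ISRE, X2 and Y box letters. B2m, H2-M3, H2-T23, H2-Q7 and H2-Q10 each lacked a match to at least 1 of these. A missing match does not show a missing element, since B2m and H2-Q7 hold TGACG followed by a letter other than C. The starts of Tap1 and of Psmb9, an immunoproteasome subunit, lie 226 bases apart and point away from each other. A match is a run of letters and not a shown binding site, and the 3′ sequencing did not measure binding.

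**Figure D1:**
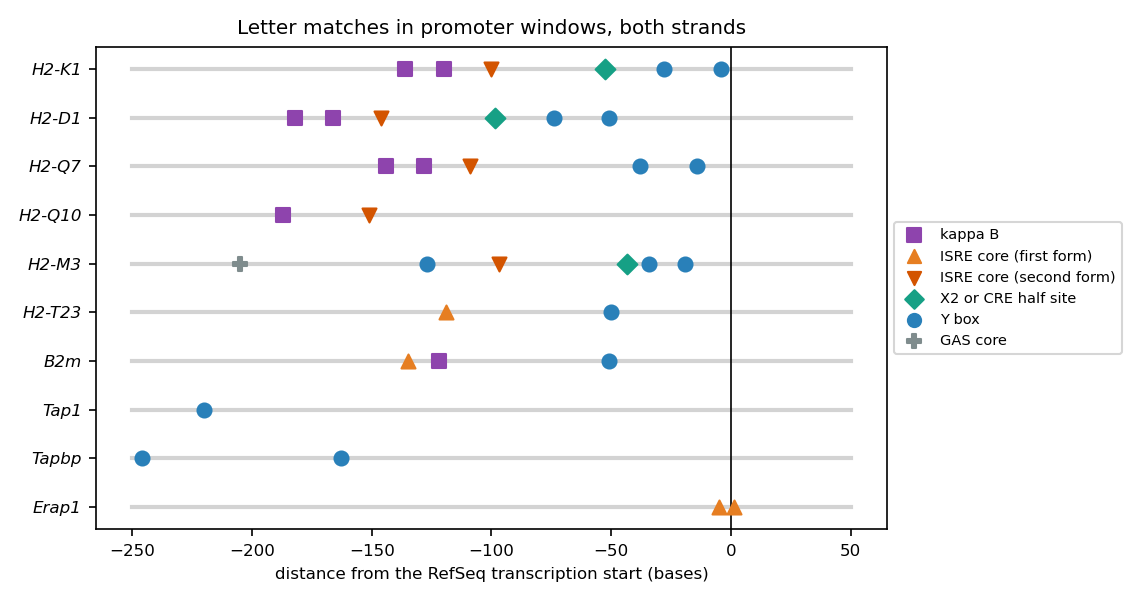
Letter matches in the promoter windows of 8 of the genes and of H2-Q7 and H2-Q10, by distance in bases from the RefSeq start, with 1 symbol for each match on either strand. H2-K1, H2-D1 and H2-Q7 show 2 kappa B matches, 1 ISRE match and 2 Y boxes, whereas H2-Q10 shows 1 kappa B match, 1 ISRE match and no Y box.

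The libraries were made from the 3′ ends of transcripts, and the deposited values are FPKM, a fragment count divided by transcript length and by the size of the library. Because 3′ reads do not grow with transcript length, the FPKM levels of different genes are not compared with each other here. Where FPKM is summed over genes, the sum is compared between mice and is set mostly by the genes with the highest values. Read totals are not given, so the absolute depth is unknown, and the relative depth of the libraries, read from the steps between low values, was 0.870 to 1.13 of their geometric mean. Anti-CD40 mouse 5 stood apart in 1 respect. Its FPKM of Prss2, a pancreatic protease, was 101.5, beside at most 0.582 in the other mice, and Ctrb1, Cela3b, Cpa1 and Pnlip were also highest there. All counts below for the 10 genes were therefore also made without that mouse. Saa1, Saa2 and Saa3, acute phase proteins, took 25.4% to 25.9% of the summed FPKM in anti-CD40 mice and 0.0449% to 0.380% in control mice, which bears on the scale of all other genes. Nothing in the labels says that the mice were handled on different days.

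In the livers of anti-CD40 mice, 9 of the 10 genes were higher than in control livers (adjusted p under 0.05, limma on log2(FPKM + 0.1), over the 13807 genes that averaged an FPKM of 0.1 or more). Of all genes tested, 23.5% were called higher, and 45.1% were called in either direction. The same 9 genes had every anti-CD40 mouse above every control mouse, which was so for 22.7% of all genes tested. The median log2 fold change of the 10 genes was 1.42, beside 0.0056 for all genes tested. All 10 passed the filter on low values, and none of them did so through the anti-CD40 mice alone, since each also had a control mean above it. The exception to the rise was H2-T23. Each of the 9 genes called higher had an exact permutation p of 0.0238 (2-sided), the smallest that the 84 splits of 9 mice into 3 and 6 allow.

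**Figure D2:**
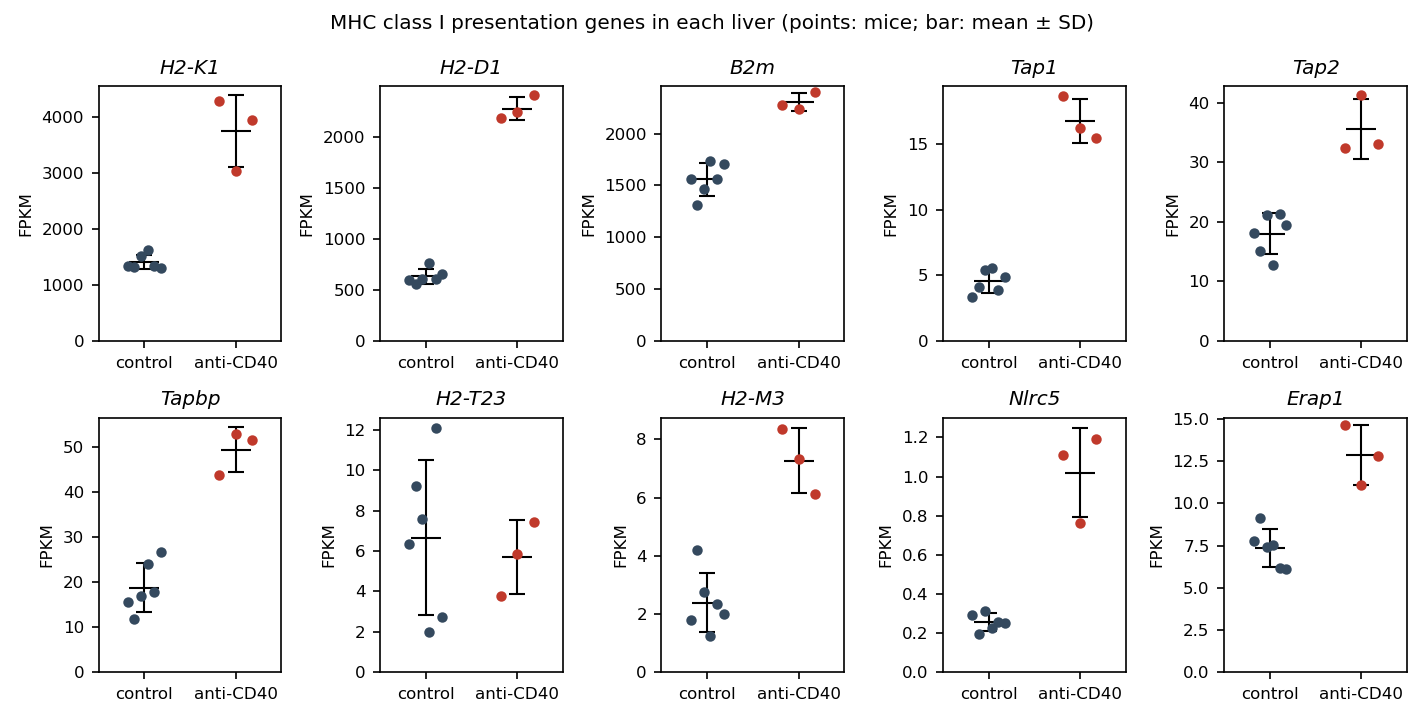
FPKM of each of the 10 genes in each liver, with a separate linear axis from 0 for every gene; points are mice, 6 control and 3 anti-CD40, and bars give the mean and SD. The anti-CD40 mice lie above all control mice in 9 panels, and the groups overlap for H2-T23.

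The classical heavy chains, which present peptides to CD8 T cells, rose. H2-K1 (chromosome 17 of mm10, 33996012 to 34000333) had an FPKM of 4289, 3039 and 3946 in anti-CD40 mice 2, 5 and 9, and in control mice it ranged from 1308 to 1631 with a median of 1346. The ratio of the means was 2.66 and the log2 fold change 1.40 ± 0.14 (SE, adjusted p = 2.55e-05, limma). Mouse 5 had the lowest of the 3 treated values, and it still lay above the highest control. H2-D1 (chromosome 17, 35263094 to 35267497) had an FPKM of 2185, 2240 and 2406 in the anti-CD40 mice, against 561 to 766 with a median of 607 in control mice. Its ratio of means was 3.60 and its log2 fold change 1.85 ± 0.12 (SE, adjusted p = 2.01e-06, limma). The treated mice lay close together, and the lowest of them was 2.85 times the highest control. Of the 50-base words in the last 500 bases of the annotated transcript, 0.44% for H2-K1 and 9.53% for H2-D1 also occur in the transcripts of another gene. The gene that shared words with H2-K1 was H2-D1. Among those that shared most with H2-D1 were Adsl and Kcnk4, which are not heavy chain genes. H2-L has the same position in the table as H2-D1 and was at the floor of 0.01 in all mice.

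B2m encodes beta-2 microglobulin, the light chain of class I molecules. In anti-CD40 mice 2, 5 and 9 the FPKM of B2m was 2274, 2236 and 2404, and in control mice it was 1311 to 1739 with a median of 1562. The ratio of means was 1.48 and the log2 fold change 0.57 ± 0.12 (SE, adjusted p = 0.00307, limma). B2m had the smallest log2 fold change of the 9 genes that rose, although the groups did not overlap. The table places it on chromosome 2 from 122120108 to 122186189, a merged locus shared with Patl2 and Trim69, whose FPKM was at most 0.145 in every mouse.

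H2-M3 presents peptides that begin with formylmethionine, as bacterial and mitochondrial proteins do. It (chromosome 17, 37270234 to 37274485) had an FPKM of 8.36, 7.32 and 6.12 in anti-CD40 mice and 1.25 to 4.21, with a median of 2.17, in control mice. The log2 fold change was 1.64 ± 0.30 (SE, adjusted p = 0.00140, limma), with control mouse 4 the highest of its group. H2-T23 encodes the Qa-1 heavy chain, the ligand of the CD94/NKG2A receptor of NK cells. Its FPKM was 3.78, 5.87 and 7.41 in the anti-CD40 mice, and it was 6.36, 9.20, 7.59, 2.01, 12.1 and 2.75 in control mice 3, 4, 7, 8, 11 and 12. All 3 treated values lay within the control range, in which mice 8 and 12 were low and mouse 11 was high. The log2 fold change was -0.03 (95% interval -1.19 to 1.14, adjusted p = 0.974, limma, and exact permutation p = 0.976), an interval that holds changes of 2-fold in either direction. The table gives H2-T23 a merged locus with H2-T24 and A930015D03Rik (chromosome 17, 35994504 to 36038174). Of the 50-base words at the 3′ end of its transcript, 38.1% occur in the transcript of another gene, so its value is uncertain. The genes that shared most were Rab33b, H2-T-ps and Hook2. The promoter window of H2-T23 printed above holds an ISRE core and a Y box.

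The transporter and its loading partner rose as well. Tap1 and Tap2 are the subunits of the peptide pump. Tap1 (chromosome 17, 34187556 to 34197225) had an FPKM of 18.7, 16.2 and 15.5 in anti-CD40 mice and 3.36 to 5.59, with a median of 4.52, in control mice. Its ratio of means was 3.70 and its log2 fold change 1.88 ± 0.17 (SE, adjusted p = 1.45e-05, limma), the largest of the 10 on this scale. Every treated mouse was well above the highest control. Tap2 (chromosome 17, 34204479 to 34216321) had an FPKM of 32.4, 41.4 and 33.0, against 12.7 to 21.3 with a median of 18.8 in control mice. Its ratio of means was 1.98 and its log2 fold change 1.0 ± 0.18 (SE, adjusted p = 0.00112, limma). Tapbp encodes tapasin, which holds the empty heavy chain at the transporter. Tapbp (chromosome 17, 33919478 to 33929290) had an FPKM of 43.7, 52.9 and 51.6, against 11.9 to 26.7 with a median of 17.3 in control mice. Its log2 fold change was 1.43 ± 0.23 (SE, adjusted p = 5.61e-04, limma), with no overlap between groups. Erap1, the aminopeptidase that trims peptides in the endoplasmic reticulum, lies on chromosome 13 from 74639872 to 74691875. It had an FPKM of 14.7, 11.1 and 12.8, against 6.11 to 9.14 with a median of 7.49, a log2 fold change of 0.80 ± 0.15 (SE, adjusted p = 0.00157, limma). The lowest treated mouse was again mouse 5.

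Nlrc5 encodes the class I transactivator and was measured at low values. It (chromosome 8, 94472763 to 94527272) had an FPKM of 1.11, 0.761 and 1.19 in anti-CD40 mice, against 0.194 to 0.314 with a median of 0.257 in control mice. The ratio of means was 3.97, and the log2 fold change was 1.64 ± 0.19 (SE, adjusted p = 8.05e-05, limma). All 3 treated mice were above all controls. The size depends on the pseudocount, being 0.68 on the log2 scale when 1 was added to FPKM and 1.94 when 0.01 was added.

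**Figure D3:**
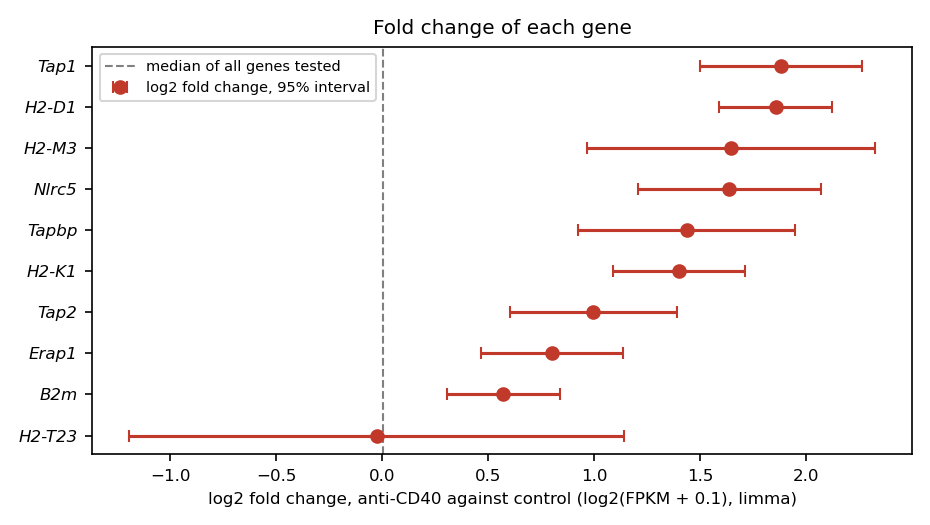
Log2 fold change of each of the 10 genes, anti-CD40 against control on log2(FPKM + 0.1), with the 95% interval from limma; the dashed line is the median of all genes tested, 0.0056. The intervals of 9 genes lie above 0, and that of H2-T23 runs from -1.19 to 1.14.

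Markers of immune and parenchymal cells also changed between the groups, and not all in the same direction as these genes. All 10 pan-leukocyte markers were higher, their summed FPKM going from 136 to 240 in control mice to 1068 to 1580 in anti-CD40 mice. The 7 neutrophil markers tested were all higher, with a summed FPKM of 18.4 to 156 in control and 4214 to 5201 in anti-CD40 mice, and the neutrophil precursor markers Mpo and Elane were too low to test. B cell markers were higher in 9 of 9 tested (summed FPKM 2.20 to 9.06 in control and 34.5 to 50.5 in anti-CD40 mice), NK cell markers in 8 of 8 (4.33 to 14.9 and 72.6 to 102) and T cell markers in 8 of 9 (3.53 to 6.17 and 15.3 to 17.7). Monocyte and macrophage markers were higher in 6 of 10 and lower in 1 (67.3 to 101 and 333 to 446), and dendritic cell markers higher in 8 of 9 (4.09 to 7.80 and 21.3 to 26.4). All 8 Kupffer cell markers, of the resident macrophages of the liver, were lower (334 to 496 and 57.9 to 68.5). Of 9 hepatocyte markers, 7 were lower and 1 higher, with a summed FPKM of 29398 to 61434 in control and 12888 to 16459 in anti-CD40 mice. Endothelial markers were split, with 3 higher and 2 lower of 10, as were stellate cell markers, with 4 higher and 3 lower of 10. Some of these markers passed the filter on low values through the anti-CD40 mice alone, so their direction, though not a call, was fixed in advance. These were 2 of the neutrophil, 2 of the B cell and 1 each of the T cell, NK cell and dendritic cell markers. The dendritic cell count fell to 4 without anti-CD40 mouse 2 or mouse 9, to 5 without mouse 5, to 4 with quantile normalization and to 5 with no filter. The T cell count fell to 5 without anti-CD40 mouse 2. The hepatocyte markers called lower were 4 with the Saa genes left out. The endothelial markers called higher were 6 with the Saa genes left out and 1 without anti-CD40 mouse 9. Defining markers of the liver were still present in every mouse, with Alb, serum albumin, at an FPKM of 774 or more. The part that a change in cell types had in the values of the 10 genes was not tested.

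Ratios within a mouse asked whether pairs of these genes changed by unequal amounts, since the scale of a library cancels in them. Of 9 pairs, 5 shifted between groups (2-sided exact permutation test, p = 0.0238 and adjusted p = 0.0429 over the 9 pairs in each case). The share of other gene pairs that shift in this way was not computed, so 5 of 9 only describes these pairs. Each of the 5 had the smallest p that the splits of the mice allow. Their shared adjusted p therefore depended on how many pairs reached it, and not on any pair alone. The pairs among H2-K1, H2-D1 and B2m are also not independent, since they use the same values. Both classical heavy chains rose more than the light chain. The log2 ratio of H2-D1 to B2m was between -1.39 and -1.18 in control mice, against -0.06, 0.00 and 0.00 in anti-CD40 mice 2, 5 and 9, a shift of 1.28. The log2 ratio of H2-K1 to B2m was 0.92, 0.44 and 0.72 in anti-CD40 mice and -0.38 to 0.06 in control mice, a shift of 0.83. H2-D1 also rose more than H2-K1, as the log2 ratio of H2-K1 to H2-D1 was lower by 0.45 (0.97, 0.44 and 0.71, against 0.99 to 1.32). In this pair anti-CD40 mouse 2 lay just below the lowest control, and mouse 5 lay farthest from the controls. Tap1 rose more than Erap1, with a log2 ratio of Erap1 to Tap1 of -0.35, -0.54 and -0.27 in anti-CD40 mice and 0.31 to 1.19 in control mice. The ratio of H2-T23 to H2-M3 fell by 1.67 on the log2 scale, from 0.44 to 2.32 in control mice to -1.13, -0.31 and 0.27 in anti-CD40 mice. With any 1 control mouse left out, none of the 5 pairs had an adjusted p under 0.05, because the smallest exact p is then 0.0357, while every shift kept its sign.

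The other 4 pairs did not pass. Tap1 rose more than Tap2 in the means, with a log2 ratio shift of 0.89 (exact permutation p = 0.0476, adjusted p = 0.0714), but control mouse values reached into the treated range. The shift was 0.45 for Tap1 to Tapbp (exact permutation p = 0.143, adjusted p = 0.167), and 0.49 for Tap1 to Psmb9, the divergent neighbours (exact permutation p = 0.167, adjusted p = 0.167). Nlrc5 and Ciita, the transactivators of class I and class II genes, had a shift of -0.59 in their log2 ratio (exact permutation p = 0.167, adjusted p = 0.167), which was -0.06 with 1 added to FPKM and -1.09 with 0.01 added. A p above the threshold does not show that these pairs changed equally.

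**Figure D4:**
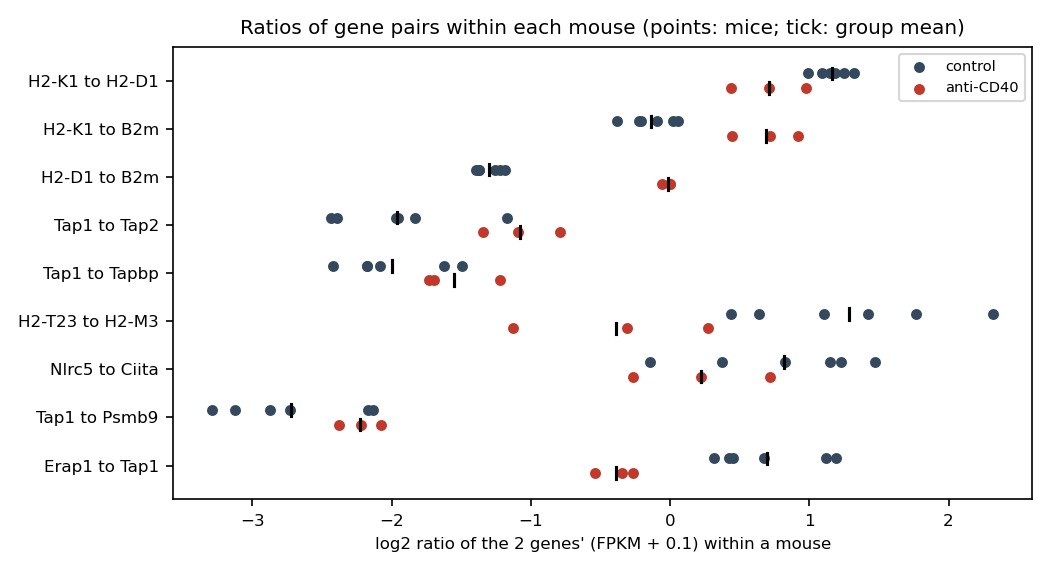
Log2 ratio of the FPKM + 0.1 of the genes in each of 9 pairs within each mouse; points are mice and black ticks the group means. The groups do not overlap for H2-K1 to H2-D1, H2-K1 to B2m, H2-D1 to B2m, H2-T23 to H2-M3 and Erap1 to Tap1; where a ratio sits on the axis depends on transcript lengths and carries no meaning here.

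The 10 genes did not mark out any 1 mouse across the board. Taken as deviations from the group mean on the log2 scale, the median over the 10 genes lay between -0.03 and 0.06 in anti-CD40 mice and from -0.14 to 0.17 in control mice. Single genes spread more. Control mouse 4 was lowest for Tapbp, at -0.61 from its group mean, and highest for H2-M3, at 0.88. The H2-T23 deviation was -1.43 in control mouse 8 and 1.1 in control mouse 11. By the distance of their profiles over the 9 mice, the genes outside the 10 nearest to the mean of the 10 were Armcx3, Nup93, Celf2, Agfg1 and Fas, a death receptor, at a root mean square distance of 0.0643 to 0.107. Fas, for example, had an FPKM of 118, 127 and 114 in anti-CD40 mice and 48.5 to 60.1 in control mice. These genes were picked for that likeness, and their values are a description.

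The other class I heavy chain genes did not move one way. Of 30 listed, 13 were tested and 17 had a mean under the filter, 12 of these at the floor in all mice. Of the 13, 6 were higher and 6 lower (21.7% of all genes tested were called lower), with a median log2 fold change of -0.03. The numbers higher and lower were 5 and 4 with quantile normalization, 5 and 5 with no filter, and 6 and 4 with the Saa genes left out. They stayed at 6 and 6 with median of ratios scaling. H2-Q7 rose from 117 to 206 in control mice to 1307, 841 and 929 in anti-CD40 mice, for a log2 fold change of 2.75 ± 0.22 (SE, adjusted p = 6.45e-06, limma). H2-Q10, the soluble chain of hepatocytes, fell from 1167 to 1701 in control mice to 737, 683 and 773, a log2 fold change of -0.99 ± 0.14 (SE, adjusted p = 2.46e-04, limma). In neither gene did the groups overlap, and every anti-CD40 mouse was below every control mouse in 19.6% of all genes tested. Their promoter windows share the GAANNGAAA match and a kappa B match on the minus strand, and H2-Q7 has in addition a second kappa B match and 2 Y boxes, which H2-Q10 lacks. H2-Q7 shares its position with H2-Q9, which was at the floor in all mice. How reads were divided between these neighbours is not known, so a floor value need not mean no transcript. Of the 3′ words of H2-Q7, 14.9% occur in another gene's transcript, against 0.44% for H2-Q10. Among others of the 13, that share was 59.4% for H2-T10 and 33.7% for H2-Q4, and 0% for H2-M2 and H2-T24.

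The other chains that fell are mostly distant relatives that do not present peptides to CD8 T cells. Cd1d1, which presents lipids to NKT cells, fell by 1.21 on the log2 scale (adjusted p = 0.00271, limma). Hfe, the iron sensor, fell by 0.95 (adjusted p = 1.89e-04, limma), and H2-Q1 fell by 1.70 (adjusted p = 1.18e-04, limma). Of the 3′ words of H2-Q1, 18.8% also occur in the transcripts of H2-Q2, which was not tested, so its value is less certain. Azgp1, a secreted zinc-binding glycoprotein, fell by 0.63 (adjusted p = 0.00108, limma), and Fcgrt, the heavy chain of the neonatal Fc receptor, fell by 0.82 (adjusted p = 0.0260, limma) with overlapping groups. The calls of Azgp1 and Fcgrt were lost with quantile normalization (adjusted p = 0.211 and 0.0744, limma) and with the Saa genes left out and the mice rescaled (adjusted p = 0.0549 and 0.146, limma). The Fcgrt call was also lost without anti-CD40 mouse 2 (adjusted p = 0.121, limma) and without mouse 9 (adjusted p = 0.0676, limma). H2-M2, named here after its values were seen, had the largest log2 fold change of the 13. It was 35.6, 33.8 and 32.9 in anti-CD40 mice and 0.0443 to 0.476 in control mice, for a log2 fold change of 6.79 ± 0.39 (SE, adjusted p = 9.07e-07, limma). H2-T24, also chosen after its values were seen because it shares a locus with H2-T23, was 0.776, 0.994 and 0.885 against 0.140 to 0.707 (log2 fold change 1.12, adjusted p = 0.0246, limma). That call was lost without any 1 of the 3 anti-CD40 mice.

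**Figure D5:**
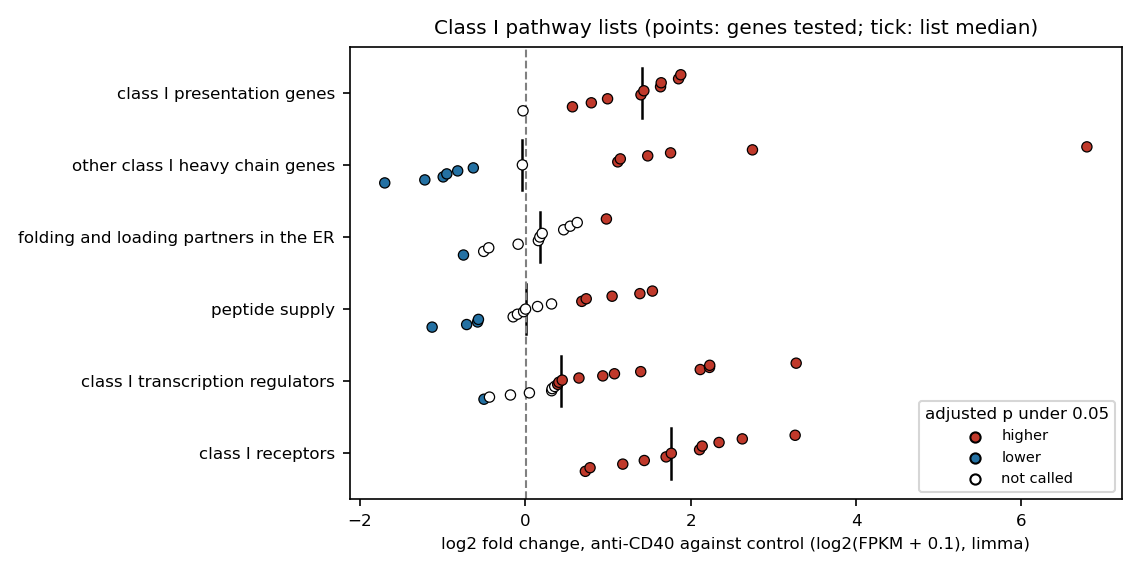
Log2 fold changes, anti-CD40 against control on log2(FPKM + 0.1), of the tested genes in 6 lists of the class I pathway; each point is a gene, filled where the adjusted p from limma was under 0.05, and the tick is the list median. The median was 1.42 for the 10 class I presentation genes and -0.03 for the 13 other heavy chain genes, while the dashed line marks 0.0056 for all genes tested.

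Within peptide supply, proteasome subunits moved in opposite directions. Of 15 genes, 5 were higher and 4 lower, with a median log2 fold change of 0.0044. The immunoproteasome subunits rose. Psmb8 had an FPKM of 170, 159 and 115 in anti-CD40 mice and 41.3 to 68.1 in control mice (log2 fold change 1.54, adjusted p = 6.83e-05, limma). Psmb9 was 79.3, 84.7 and 72.4 against 22.4 to 53.6 (log2 fold change 1.39, adjusted p = 0.00121, limma), and Psmb10 was 65.0, 78.2 and 57.7 against 35.1 to 51.3 (log2 fold change 0.68, adjusted p = 0.00313, limma). The groups did not overlap in these 3 subunits. The constitutive subunits that they replace fell: Psmb5 by 1.13 (adjusted p = 0.00847, limma), Psmb6 by 0.58 (adjusted p = 0.00446, limma) and Psmb7 by 0.57 (adjusted p = 0.00763, limma) on the log2 scale. The groups overlapped for Psmb5 alone, which was 14.9, 22.7 and 7.83 in anti-CD40 mice against 21.2 to 34.8 in control mice. The size of its fall depended on single mice, with a log2 fold change of -0.72 without anti-CD40 mouse 9 and -1.48 without mouse 5. The falls of Psmb6 and Psmb7 depended on the scale, as neither was called with quantile normalization (log2 fold changes -0.10 and -0.09) or with the Saa genes left out (-0.21 and -0.20). Psmb5 was also not called with the Saa genes left out (-0.76, adjusted p = 0.0509, limma). The cytosolic aminopeptidase Lap3 fell by 0.71 (adjusted p = 0.00341, limma), a call lost under the same 2 scalings. Psme2, a subunit of the proteasome activator PA28, was 298, 270 and 244 against 176 to 254 (log2 fold change 0.32, adjusted p = 0.0642, limma). It was called higher with quantile normalization (0.80, adjusted p = 7.17e-04, limma), with the Saa genes left out (0.68, adjusted p = 0.00185, limma) and without control mouse 7 (0.37, adjusted p = 0.0426, limma). The other PA28 subunit, Psme1, named after its values were seen, was 77.9, 82.7 and 70.5 against 40.1 to 58.0, without overlap (log2 fold change 0.74, adjusted p = 0.00133, limma). Over the 15 genes, 1 was called lower with quantile normalization, none with the Saa genes left out and 4 with median of ratios scaling.

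The folding and loading partners in the endoplasmic reticulum mostly did not pass the test. Of 11 genes, 1 was higher, 1 lower and 9 not called, with a median log2 fold change of 0.18. Pdia3, named after its values were seen, encodes ERp57, which sits with tapasin in the loading complex. It was 300, 308 and 266 in anti-CD40 mice and 123 to 191 in control mice (log2 fold change 0.98, adjusted p = 2.85e-04, limma), without overlap. The chaperones Hspa5 (log2 fold change 0.63, adjusted p = 0.0677, limma) and Calr (0.47, adjusted p = 0.162, limma) and the translocon subunit Sec61b (0.21, adjusted p = 0.264, limma) did not pass. Sec61g, another translocon subunit, fell by 0.75 (adjusted p = 0.0236, limma) with overlapping groups, and its call was lost without anti-CD40 mouse 5 (adjusted p = 0.0671, limma) or mouse 9 (adjusted p = 0.105, limma). The list depended on the choice of scaling: 6 were higher and none lower with quantile normalization, and 7 were higher and none lower with the Saa genes left out. With median of ratios scaling the list stayed at 1 higher, 1 lower and 9 not called. It also moved with single control mice, to 4 higher without mouse 12 and to 3 lower without mouse 4. Hspa5 and Calr were called higher with quantile normalization, with the Saa genes left out and without control mouse 12. Sec61b was called higher with quantile normalization and with the Saa genes left out.

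Of 18 transcription regulators of class I genes, 11 were higher and 1 lower, with a median log2 fold change of 0.43. Irf1, which binds the ISRE of class I promoters, had an FPKM of 52.8, 41.9 and 51.1 in anti-CD40 mice, against 30.6 to 52.3 in control mice, so that the groups overlapped (log2 fold change 0.33, adjusted p = 0.179, limma). It was called higher with quantile normalization (log2 fold change 0.59, adjusted p = 0.0318, limma) and with the Saa genes left out (0.69, adjusted p = 0.0107, limma). Relb, a subunit of NF-kappa B that CD40 is known to engage, had the largest log2 fold change of the 18 and was named after its values were seen. It was 34.7, 21.3 and 21.7 against 1.97 to 3.64 (log2 fold change 3.28, adjusted p = 2.38e-06, limma). Of the proteins that bind the SXY module, Rfx5 was 5.09, 4.55 and 4.95 against 3.13 to 4.35 (log2 fold change 0.41, adjusted p = 0.0383, limma). The Rfx5 call was lost without any 1 of the anti-CD40 mice and with quantile normalization (0.28, adjusted p = 0.116, limma). It was also lost without control mouse 8, 11 or 12 (adjusted p = 0.0663, 0.0700 and 0.0611, limma). Nfyb, a Y box binding subunit, fell by 0.50 (adjusted p = 0.00369, limma), but not with the Saa genes left out (-0.13, adjusted p = 0.313, limma). Rela, another NF-kappa B subunit, was not called (log2 fold change 0.36, adjusted p = 0.102, limma), but it was called higher with quantile normalization (0.60, adjusted p = 0.00703, limma), with the Saa genes left out (0.72, adjusted p = 0.00172, limma) and without control mouse 12 (0.45, adjusted p = 0.0153, limma). Ciita was 0.936, 0.937 and 0.684 against 0.0422 to 0.260 (log2 fold change 2.23, adjusted p = 1.60e-04, limma). Without any 1 of the 3 anti-CD40 mice, 7 of the 18 regulators were higher.

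Receptors that read class I molecules on NK cells, T cells and myeloid cells were higher in 11 of 11 genes tested, of 15 listed. Of these, 3 had a control mean under 0.1 and passed the filter through the anti-CD40 mice. The direction of these 3 was therefore fixed in advance, though a call was not. Klrd1 and Klrc1 encode CD94 and NKG2A, the receptor for the Qa-1 chain that H2-T23 encodes. Klrd1 was 13.4, 14.2 and 13.5 in anti-CD40 mice and 1.35 to 5.07 in control mice (log2 fold change 2.34, adjusted p = 1.84e-04, limma). Klrc1 was 19.7, 17.3 and 17.3 against 4.77 to 12.0 (log2 fold change 1.44, adjusted p = 8.67e-04, limma). Pirb, an inhibitory receptor of myeloid and B cells, was 5.70, 5.53 and 4.92 against 0.726 to 1.67 (log2 fold change 2.11, adjusted p = 3.22e-05, limma). In all 3 genes every anti-CD40 mouse was above every control mouse. Without anti-CD40 mouse 5, and likewise with quantile normalization, 7 of the 11 were called higher. The receptors mark the same NK, T and myeloid cells whose markers rose, and the part of cell numbers in their values was not tested.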

How the data were processed

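RNA from bulk liver was sequenced from 3′ ends (QuantSeq). The authors aligned reads to mm10 with STAR, ran Cufflinks and CuffDiff, and deposited FPKM with a floor of 0.01; the annotation is not given in the sources used here. The 15 genes with a failed estimate were left out. FPKM are not counts, so log2(FPKM + 0.1) was tested with limma 3.58.1 in R 4.3.3 (eBayes with trend, 2-sided, Benjamini-Hochberg at 0.05) in genes with a mean of at least 0.1. Each library was 1 mouse, and p-values measure the spread between mice. Named genes were the 10 genes, the 3 highest genes and every fallen gene of each pathway list, both genes of each pair, 5 regulators and proteasome genes, and the 5 nearest profiles; 1 of these regulators is not reported here. Members and lists were chosen with earlier results of these data known. Alternatives were a pseudocount of 1 or 0.01, leaving the filter off or raising it to a mean of 1, quantile and median of ratios scaling, leaving out Saa1, Saa2 and Saa3, other eBayes settings, and leaving out each mouse. Promoters came from RefSeq (GRCm38.p6), and 3′ words from GENCODE on GRCm38. Python 3.11.15, numpy 2.4.6, pandas 2.3.3 and matplotlib 3.10.9 did the rest, and scripts were tested on simulated data.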

Additional observations from a re-analysis of the deposited data

Results flagged for a closer look

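Of 52 sets of control values examined for a mouse far from the rest, 2 stood apart, where chance gives about 2.6. The FPKM of Klrc1, which encodes NKG2A, was 12.0 in control mouse 4, with the next highest control at 6.82, a gap of 0.717 of the control range. The FPKM of Psmb5, a constitutive proteasome subunit, was 21.2 in control mouse 8, with the next lowest control at 31.4, a gap of 0.750 of the range.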

How the results depend on the processing

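Over 18 alternatives, the number of genes called in either direction was 4814 to 7282 (6230 as reported). Of the genes called, 52.0% were higher, against 46.4% with quantile normalization, 44.7% with a mean FPKM of at least 1, and 77.4% with the Saa genes left out, where all genes shifted to a median of 0.35 (log2). Of the 10 genes, 9 were called higher under every alternative but a mean FPKM of at least 1, with 8, since Nlrc5 was then not tested. The 9 genes whose groups did not overlap were 9 under each alternative run. The H2-T23 log2 fold change turned positive, 0.33 with the Saa genes left out, and lay between -0.31 and 0.24 as each mouse was left out (0.24 without anti-CD40 mouse 2, and 0.01, 0.12, 0.06 and 0.19 without control mice 3, 4, 7 and 11), and it was never called. The number of pairs past the threshold went from 5 to 0 without any 1 control mouse, with adjusted p of 0.0536 or 0.0643 for those 5 pairs, because fewer mice allow fewer splits; without an anti-CD40 mouse the smallest exact p is 0.0714, and no test was made. No paired analysis was possible because the mouse numbers of the groups do not coincide. The absolute depth is unknown, which limits Nlrc5, Ciita and other genes below an FPKM of 1.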
